A study of Homo sapiens with 60 samples.

Results

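Samul-tang is an East Asian herbal formula prepared from 4 crude drugs: prepared Rehmannia root (Rehmanniae Radix Preparata), Cnidium rhizome (Cnidii Rhizoma), Angelica root and Paeonia root. The comparison described here sets cells given a water extract of the whole formula against cells given water extracts of 2 of those drugs, Rehmannia and Cnidium, each at the same extract concentration. It asks which genes the formula moved beyond, like, or less than the mean of both components. The members are 8 of the 60 RNA-seq libraries of the series, found by their titles: 2 of Samul-tang, 3 of Rehmannia and 3 of Cnidium, all at the high dose of 500 µg/mL. All were made from SW1783, an established human astrocytoma line, after 24 h of treatment. The same extracts at 100 and 20 µg/mL (medium and low dose, again 2, 3 and 3 libraries each) and 3 libraries of the DMSO vehicle (0.1%, as the sample labels give it) served as references, which makes 27 libraries in 10 groups. Angelica and Paeonia were present with 1 library a dose and are given as levels without a test. The labels do not say how much of each herb went into the formula, so at equal extract weight the amount of Rehmannia or Cnidium in the formula wells is not known here. Nor do they say that libraries of a group came from separate cultures, and the p-values then measure only the spread between these libraries.

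Several gene systems that respond to plant extracts frame the results. ID1, ID2, ID3 and ID4 encode inhibitor of DNA binding proteins, which lack a DNA-binding region, pair with basic helix-loop-helix transcription factors and keep them off their E box sites; bone morphogenetic protein (BMP) signals through SMAD proteins are a known inducer of these genes, and SMAD6 and SMAD7 feed back on that pathway. The aryl hydrocarbon receptor (AHR) is a ligand-activated transcription factor that binds many planar aromatic compounds and induces CYP1A1, CYP1B1 and TIPARP. NRF2 induces detoxifying enzymes under electrophilic or oxidative stress. In astrocytoma cells, ID proteins are known for their part in keeping an immature state.

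Libraries held 21540464 to 29609799 expected counts and a count above 0 in 22849 to 24004 genes. Of 12 astrocyte and glioma markers, 6 lay below 1 CPM (counts scaled to a common library size) in every high-dose group and in vehicle, among them GFAP at 0.072 to 0.151 CPM under Samul-tang, while VIM, CD44, SOX9, CLU, SLC1A3 and NES were expressed. The sample codes place the formula in set 7 and both components in set 5, so formula and set cannot be told apart at any 1 dose. Vehicle libraries carry the code B1. Every comparison with vehicle, and each class built on it, therefore also crosses sets. The Samul-tang libraries at high dose also differed from each other. In replicate 1, log2 ratios to the mean of the 6 component libraries fell with the GC content of the transcripts (Spearman -0.68 over 11279 genes at 5 CPM or more), as they did in the medium-dose (-0.68 and -0.6) and low-dose (-0.65 and -0.63) Samul-tang libraries. Replicate 2 did not share this slope (0.13). The main counts below are therefore given also without each of these 2 libraries.

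Between Samul-tang and the mean of its components, 964 of 17103 genes tested were called at an adjusted p under 0.05, 5.64% of the genes; 416 (2.43%) were higher and 548 (3.2%) lower under the formula. Differences were small: 14 of the 964 reached 2-fold and the median size was 0.196 on the log2 scale. Against Rehmannia alone 349 genes (2.04%) were called and against Cnidium alone 1095 (6.4%); fewer genes separated the formula from Rehmannia than from Cnidium, a difference in counts that was not tested. Relative to vehicle, 3687 genes (21.6%) were called under Samul-tang and 2440 (14.3%) for the mean of the components. The former was 2018 without Samul-tang replicate 1 and 4088 without replicate 2, and the latter 1377 without vehicle replicate 1. The count of 964 was 190 without Samul-tang replicate 1 and 2691 without replicate 2, and the counts against Rehmannia were 29 and 2146 and against Cnidium 436 and 2459. It was 29 with the spread estimated over all 54 libraries, 111 over 53 of them and 295 from the 8 high-dose libraries alone. With library totals alone as the scaling, 60.2% of calls were higher under the formula instead of 43.2%, 54.2% instead of 41.8% against Rehmannia and 63.3% instead of 42.7% against Cnidium, and the share against vehicle was 73.7% instead of 48.9% for Samul-tang and 75.7% instead of 49.0% for the component mean.

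The genes fell into 3 classes by their position between vehicle, components and formula. A gene was beyond the components where Samul-tang differed from vehicle and from the component mean in the same direction, and 792 genes (4.63% of those tested, 315 up and 477 down) did so. A gene was like the components where both differed from vehicle in 1 direction and the 95% interval of their difference stayed within 0.5 on the log2 scale, which held for 1380 genes (8.07%, 669 up and 711 down). A gene was moved less where the component mean differed from vehicle and Samul-tang lay significantly back from it, and 52 genes (0.304%) met this. A further 2212 genes moved against vehicle without meeting any of these definitions. Against each component singly, 80 genes were above both and 153 below both, while 2 lay between them: LDHA, a lactate dehydrogenase subunit, and STC2, a secreted stanniocalcin. Without Samul-tang replicate 1 and replicate 2 in turn, 171 and 2145 genes were beyond, 1140 and 910 like, 9 and 165 moved less, and 23 and 1530 lay outside both components.

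**Figure D1:**
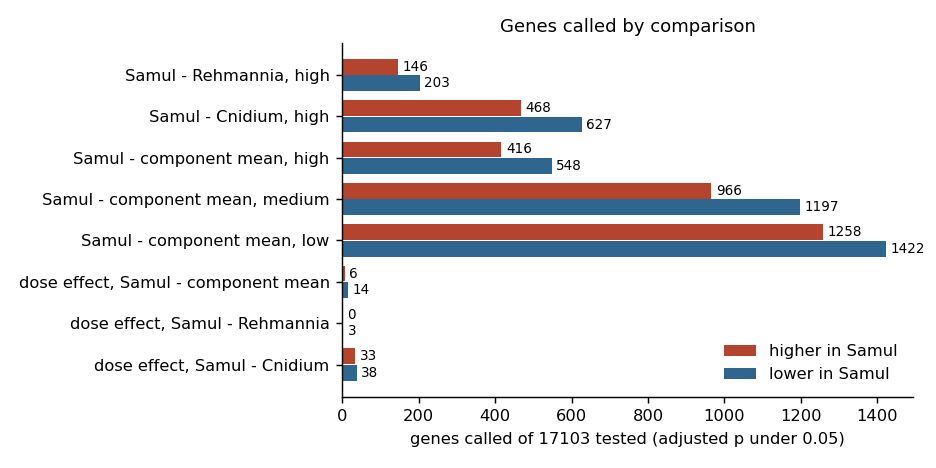
Number of genes called at an adjusted p under 0.05 (x axis, of 17103 tested) in each comparison (y axis), higher (red) or lower (blue) under Samul-tang. The component mean gave 964 calls at the high dose, 2163 at the medium and 2680 at the low dose, and 20 for the difference of dose effects.

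The same comparison was made at the lower doses. At the medium dose 2163 genes (12.6%) were called and at the low dose 2680 (15.7%), 1258 higher (7.36%) and 1422 lower (8.31%), with a median size of 0.195 at the low dose. Of the 964 high-dose calls, 621 were also called at the low dose in the same direction, 64.4% of the high-dose and 23.2% of the low-dose calls; 4 were called in the opposite direction and 339 were not called there. High-dose and low-dose comparisons share no library, and their log2 differences had a Pearson correlation of 0.57 over 11257 genes at 5 CPM or more. These low-dose differences followed transcript GC content (Spearman -0.47, against -0.29 at the high dose), from a median of 0.114 over the 1699 genes of lowest GC content to -0.148 over the 1699 of highest. With an offset for GC content the counts were 724 at the high, 430 at the medium and 813 at the low dose, and with the spread estimated over all 54 libraries they were 29, 0 and 0, so that the order of the doses depended on the setting. With library totals alone the share of higher calls at the low dose was 58.5% instead of 46.9%.

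A comparison in which each term lies within 1 set is the difference of dose effects: the change from low to high dose under Samul-tang minus the mean change under Rehmannia and Cnidium. Its values rose with transcript GC content (Spearman 0.28). Their median was -0.057 over the 1699 genes of lowest GC content and 0.077 over the 1699 of highest. A GC-related difference between the sets thus need not cancel in it, and the cause of this slope was not tested. By this measure 20 genes (0.117%) were called, 6 higher (0.0351%) and 14 lower (0.0819%), and 1225 had an unadjusted p under 0.05. The count was 331 without Samul-tang high replicate 1 and 17 without replicate 2. With Rehmannia alone as the reference 3 genes (0.0175%) were called and with Cnidium alone 71 (0.415%). The 14 lower genes held ID1, ID2, ID3 and ATOH8, all basic or inhibitory helix-loop-helix proteins, and 11 of the 14 lay below both components at the high dose. Of the 6 higher genes 1, LRIG1, lay above both.

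**Figure D2:**
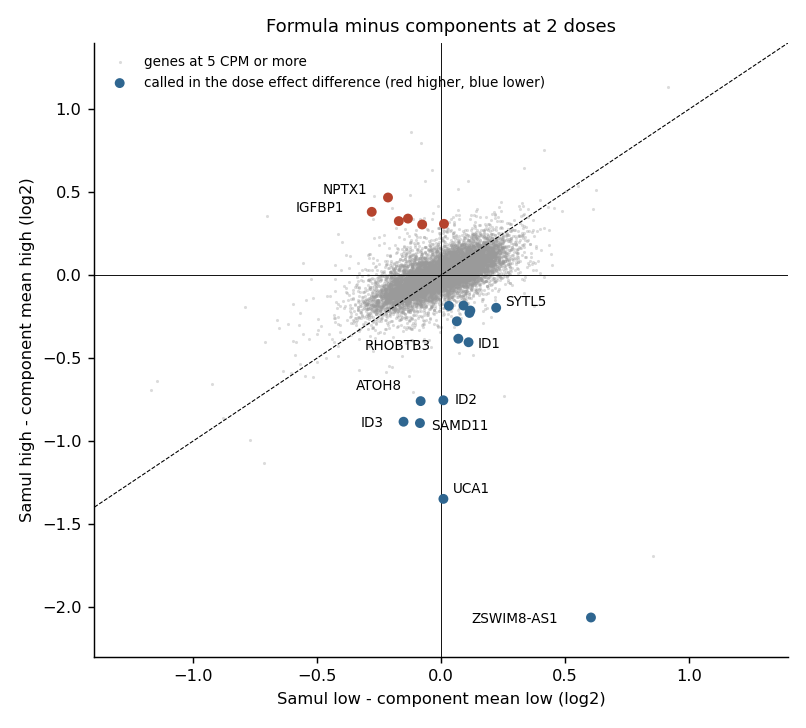
Log2 difference of Samul-tang minus component mean at the high dose (y axis) against the same difference at the low dose (x axis) for genes at 5 CPM or more (grey) and the 20 genes called in the difference of dose effects (red higher, blue lower); the dashed line marks equality, and 7 genes of 11257 lie outside the axes. The blue genes lie between -0.18 and -2.06 at the high dose and between -0.15 and 0.60 at the low dose, where SYTL5 (0.22) and LIMCH1 (0.12) passed the test.

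ID1, ID2 and ID3 were lower under Samul-tang than under either component. ID3 was at 81.7 and 89.4 CPM under Samul-tang, 129, 135 and 138 under Rehmannia, 167, 186 and 204 under Cnidium and 182, 182 and 183 under vehicle. Both Samul-tang libraries lay below all 6 component libraries, Rehmannia lay between them and vehicle, and Cnidium overlapped vehicle. The difference from the component mean was -0.88 ± 0.09 (log2 ± SE, adjusted p = 7.82e-06) at the high dose and -0.15 at the low dose, where Samul-tang was at 173 and 181 CPM. The dose effect of the formula exceeded that of the components by -0.73 ± 0.12 (adjusted p = 0.00683).

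ID2 showed the same order, with 11.7 and 11.5 CPM under Samul-tang, 15.5, 16.04 and 17.4 under Rehmannia, 21.3, 24.9 and 24.1 under Cnidium and 25.3, 21.7 and 23.3 under vehicle. Cnidium and vehicle overlapped, and all Rehmannia libraries lay between them and Samul-tang. Its difference from the component mean was -0.75 ± 0.09 (adjusted p = 4.97e-07) and its difference of dose effects -0.76 ± 0.11 (adjusted p = 0.000331). ID1 was at 199.6 and 198 CPM under Samul-tang, 220.4, 257 and 224 under Rehmannia, 291, 293 and 304 under Cnidium and 238, 238 and 244 under vehicle. For this gene Cnidium lay above vehicle (0.31 log2, adjusted p = 1.9e-05) while Samul-tang lay below vehicle (-0.26, adjusted p = 0.000459). The difference of ID1 from the component mean was -0.40 ± 0.05 (adjusted p = 1.55e-06), with a difference of dose effects of -0.52 ± 0.07 (adjusted p = 3.31e-05). ID4, expressed at low level, was at 1.66 and 1.28 CPM under Samul-tang against 1.77, 1.86 and 1.33 under Rehmannia and 2.47, 2.86 and 2.91 under Cnidium; it differed from the component mean (-0.55 ± 0.16, adjusted p = 0.0355), a call lost without either Samul-tang library, and not from Rehmannia (-0.20, adjusted p = 0.682).

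ATOH8, a basic helix-loop-helix transcription factor of the atonal family, moved with the ID genes. It was at 9.38 and 9.89 CPM under Samul-tang, 14.5, 14.1 and 13.8 under Rehmannia, 17.8, 19.8 and 18.8 under Cnidium and 21.1, 19.97 and 21.4 under vehicle, with no overlap between Samul-tang and these groups. The difference from the component mean was -0.76 ± 0.07 (adjusted p = 2.14e-09), the low-dose difference -0.08, and the difference of dose effects -0.68 ± 0.09 (adjusted p = 4.47e-05). Among all 11 genes fixed as ID genes and BMP feedback, 5 were lower (ID1 to ID4 and SMAD6) and 1 higher (GREM1, a secreted BMP antagonist) under Samul-tang than the component mean, with a median of -0.312 against 0.002 for all genes. Over all genes tested, 3.2% were lower and 2.43% higher at the high dose. At the low dose none of the 11 was called and the median was 0.002. SMAD7 lay below both components singly (-0.29, adjusted p = 0.0491 and -0.31, adjusted p = 0.0136) and is counted among the 5 lower genes of the TGF-beta and YAP list. The list was 0 higher and 3 lower without Samul-tang replicate 1, and 1 and 4 without replicate 2.

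Because these 4 helix-loop-helix genes moved together, the 250 bases upstream of their start sites are printed here from RefSeq (GRCh38.p14), 5′ to 3′ on the gene's strand, in lower case with each E box (CANNTG, both strands, a palindromic pattern) in capitals.
ID1, chr20:31605039-31605288, plus strand: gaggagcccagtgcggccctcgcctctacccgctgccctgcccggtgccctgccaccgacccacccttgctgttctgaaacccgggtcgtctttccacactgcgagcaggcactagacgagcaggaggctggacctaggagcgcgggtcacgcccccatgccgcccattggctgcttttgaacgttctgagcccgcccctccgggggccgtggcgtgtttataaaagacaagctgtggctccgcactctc
ID2, chr2:8681806-8682055, plus strand: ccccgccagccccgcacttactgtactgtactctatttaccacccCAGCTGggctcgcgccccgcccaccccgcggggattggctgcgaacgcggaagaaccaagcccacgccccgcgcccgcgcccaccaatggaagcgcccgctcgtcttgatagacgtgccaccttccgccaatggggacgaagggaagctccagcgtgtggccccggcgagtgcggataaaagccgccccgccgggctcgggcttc
ID3, chr1:23559502-23559751, minus strand: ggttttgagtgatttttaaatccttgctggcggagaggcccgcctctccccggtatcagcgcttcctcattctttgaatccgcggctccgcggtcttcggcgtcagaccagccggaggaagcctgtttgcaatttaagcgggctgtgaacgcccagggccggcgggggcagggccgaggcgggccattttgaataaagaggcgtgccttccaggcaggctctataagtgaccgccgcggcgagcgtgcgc
ATOH8, chr2:85753741-85753990, plus strand: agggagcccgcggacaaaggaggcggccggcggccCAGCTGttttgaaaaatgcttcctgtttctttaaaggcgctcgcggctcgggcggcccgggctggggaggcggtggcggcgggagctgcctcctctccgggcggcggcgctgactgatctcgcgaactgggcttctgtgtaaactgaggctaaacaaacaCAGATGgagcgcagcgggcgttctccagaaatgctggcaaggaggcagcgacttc

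ID2 held 1 E box and ATOH8 2, while ID1 and ID3 held none in this window; 61.8% of 35116 RefSeq promoter windows of the same length hold at least 1. The CCAAT box (CCAAT, both strands) occurred 3 times for ID2, once for ID1 and not for ID3 or ATOH8, beside 32.0% of all windows, and GGCGCC (both strands, a core element described in BMP-responsive promoters) in none of the 4, beside 16.4% of all windows. The windows had a GC content of 62.0 to 69.2%. These are matches of letters and not measured sites.

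**Figure D3:**
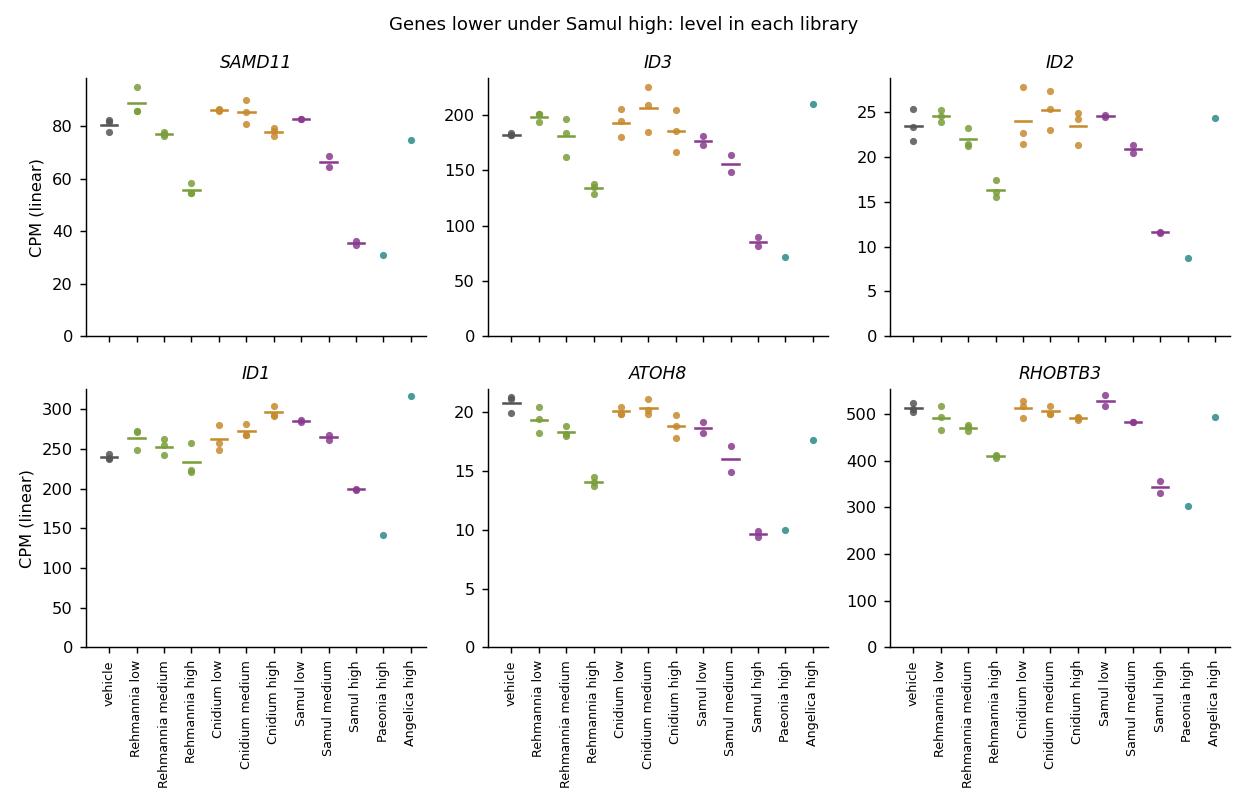
Level (CPM, linear y axis from 0) of 6 genes in each library (points) by group (x axis), with the group mean as a line where there is more than 1 library. Samul-tang at the high dose lies below Rehmannia and Cnidium at the high dose for all 6, and its low-dose libraries lie near the low-dose components.

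SAMD11 (ENSG00000187634, chr1:923928-944581 in GENCODE 29 on GRCh38), which encodes a sterile alpha motif protein, had the smallest p of all genes tested against the component mean. It was at 34.9 and 36.2 CPM under Samul-tang, 58.5, 54.7 and 54.4 under Rehmannia, 79.2, 78.2 and 76.2 under Cnidium and 77.6, 82.3 and 81.6 under vehicle. Samul-tang and Rehmannia each lay wholly below vehicle without overlap, and Cnidium overlapped it. The difference was -0.89 ± 0.05 against the component mean (adjusted p = 3.55e-16), -0.65 against Rehmannia (adjusted p = 1.89e-10) and -0.81 ± 0.06 between dose effects (adjusted p = 9.52e-11). RHOBTB3 (ENSG00000164292, chr5:95713522-95824383), a protein of the Golgi, was at 356 and 332 CPM under Samul-tang, 413, 405 and 411 under Rehmannia, 488, 493 and 494 under Cnidium and 511, 504 and 524 under vehicle, again with Samul-tang lowest and no overlap. It differed by -0.38 ± 0.04 (adjusted p = 2.72e-09), with a difference of dose effects of -0.45 ± 0.05 (adjusted p = 5.02e-07). SAMD11 and RHOBTB3 were the 2 of the 20 genes whose dose effect also exceeded that of Rehmannia alone (adjusted p = 6.97e-05 and 0.00212).

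A pair of long noncoding RNAs gave the largest differences of dose effects at low levels. UCA1, a noncoding RNA first described in bladder cancer, was at 1.07 and 1.67 CPM under Samul-tang, 3.93, 2.36 and 3.08 under Rehmannia, 3.58, 4.35 and 3.99 under Cnidium and 5.04, 5.76 and 6.18 under vehicle, without overlap between Samul-tang and these groups. It differed by -1.35 ± 0.18 at the high dose (adjusted p = 6.28e-06) and 0.01 at the low dose. ZSWIM8-AS1, at 0.405 and 0.106 CPM under Samul-tang against 1.38, 1.17 and 1.10 under Rehmannia and 1.19, 0.954 and 0.709 under Cnidium, differed by -2.06 ± 0.40 (adjusted p = 0.00116). It is antisense to ZSWIM8, and since the strand setting of the counting is unknown here, reads of both genes may be mixed.

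The other 6 lower genes had smaller differences. PODXL (podocalyxin, an anti-adhesive surface sialomucin) was at 39.2 and 38.5 CPM under Samul-tang, 43.6, 43.1 and 46.5 under Rehmannia, 50.1, 49.7 and 50.2 under Cnidium and 65.2, 67.1 and 73.9 under vehicle, so that all extracts lay below vehicle and Samul-tang lowest. Its difference was -0.28 ± 0.05 (adjusted p = 0.000305). LIMCH1, an activator of non-muscle myosin, differed by -0.21 ± 0.04 (adjusted p = 0.000881) at the high dose and by 0.12 in the other direction at the low dose (adjusted p = 0.0384). LMO7, an adherens junction protein, differed by -0.18, and FAM13B by -0.23. Neither passed the test against Rehmannia alone (adjusted p = 0.104 and 0.058). The Golgi protein GOLIM4 differed by -0.19. SYTL5, a Rab27 effector, lay at the Rehmannia level (26.2 and 24.4 CPM against 26.4, 27.9 and 25.7) and below Cnidium (31.8, 30.3 and 32.2); it was higher than the component mean at the low dose (0.22, adjusted p = 0.00264) and lower at the high dose (-0.20, adjusted p = 0.0236). Without Samul-tang high replicate 2, 12 of the 20 genes kept their call in the difference of dose effects, and without replicate 1 all 20 did; LRIG1, FAM13B, CEMIP, PODXL, SYTL5, NPTX1, GOLIM4 and ZSWIM8-AS1 were the 8 lost. Without Samul-tang low replicate 2, 10 of the 20 kept their call.

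The 6 higher genes mostly stood at the level of Rehmannia rather than beyond it. ALDH1A3 (ENSG00000184254, chr15:100877714-100916626), which oxidises retinaldehyde to retinoic acid, was at 1092 and 1110.3 CPM under Samul-tang, 1019, 1052 and 1061 under Rehmannia, 761, 759.8 and 747 under Cnidium and 699, 687 and 692 under vehicle. Samul-tang lay above Rehmannia by 0.07 (adjusted p = 0.246, 95% interval 0.01 to 0.14) and above Cnidium by 0.54 (adjusted p = 6.97e-15). The difference from the mean, 0.31 ± 0.03 (adjusted p = 2.72e-09), thus came with a gap between the 2 components. IGFBP1, a secreted binder of insulin-like growth factors, was at 50.3 and 44.6 CPM under Samul-tang, 46.4, 49.5 and 43.7 under Rehmannia, 28.8, 29.6 and 26.98 under Cnidium and 21.9, 22.02 and 17.9 under vehicle. It overlapped Rehmannia (0.02, adjusted p = 0.93, 95% interval -0.14 to 0.19) and exceeded Cnidium by 0.74 (adjusted p = 5.74e-07).

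SERPINB2, the plasminogen activator inhibitor 2 and a known AHR target, was at 57.6 and 52.5 CPM under Samul-tang, 58.95, 60.6 and 59.6 under Rehmannia, 29.5, 34.8 and 32.5 under Cnidium and 43.4, 45.3 and 39.9 under vehicle. Here Rehmannia lay above vehicle, Cnidium below it and the formula on the Rehmannia side. NPTX1, a secreted neuronal pentraxin, was at 11.7 and 12.3 CPM under Samul-tang, 13.4, 13.8 and 13.3 under Rehmannia, 5.59, 5.14 and 5.97 under Cnidium and 4.34, 4.27 and 5.09 under vehicle, and did not pass the test against Rehmannia (-0.17, adjusted p = 0.339). CEMIP, a hyaluronan-degrading protein, was at 57.6 and 66.7 CPM against 54.8, 57.8 and 58.4 under Rehmannia and 42.2, 41.5 and 43.1 under Cnidium, with 1 Samul-tang library within the Rehmannia range. LRIG1, a negative regulator of receptor tyrosine kinases, was the gene above both, at 40.4 and 44.5 CPM against 36.3, 35.9 and 37.1 and 32.1, 33.2 and 31.9. Its difference was 0.22 from Rehmannia (adjusted p = 0.0298) and 0.39 from Cnidium (adjusted p = 1.12e-05). Differences of dose effects for the 6 genes ran from 0.30 for ALDH1A3 to 0.68 for NPTX1.

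**Figure D4:**
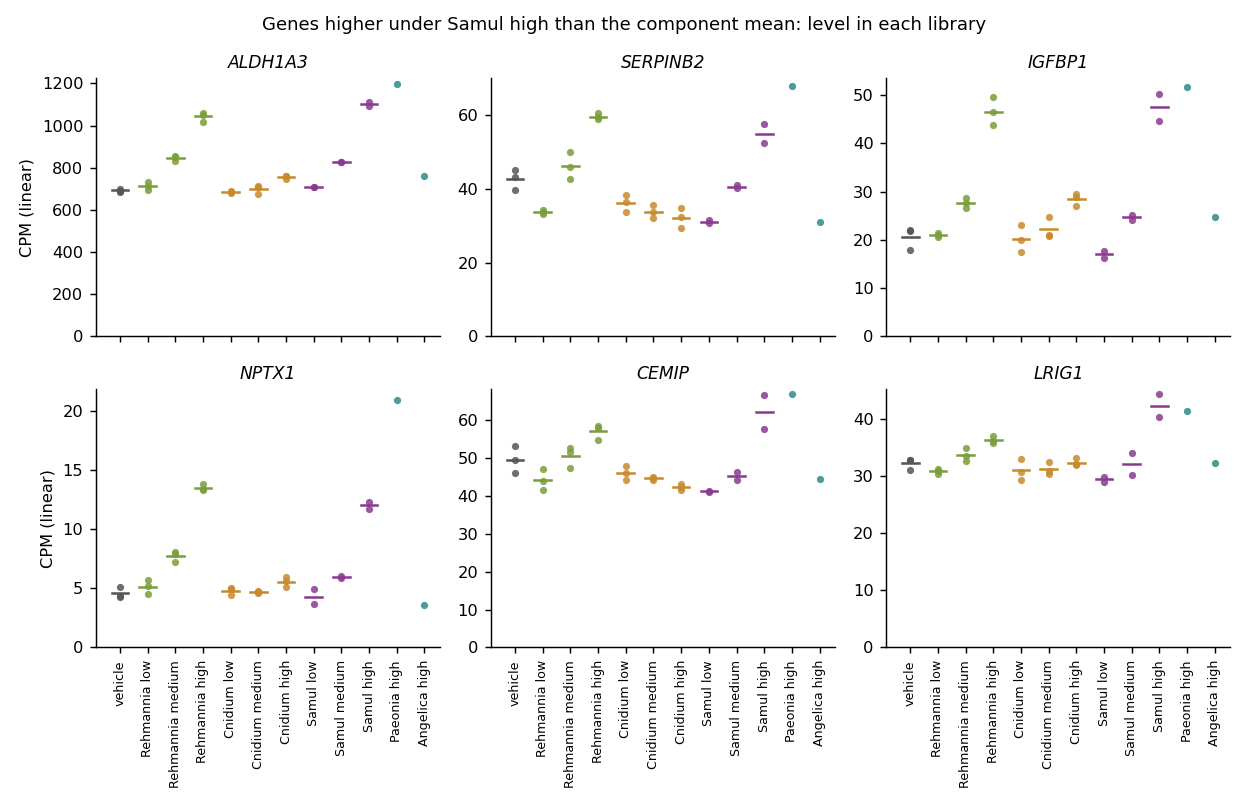
Level (CPM, linear y axis from 0) of the 6 genes with a higher dose effect under Samul-tang, in each library (points) by group (x axis), with group means as lines. Group means of Rehmannia and Samul-tang increase with dose for all 6 genes, while Cnidium at the high dose is near or below its low-dose level for SERPINB2, CEMIP and LRIG1.

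Paeonia, a component outside the mean, lay beyond all 6 Rehmannia and Cnidium libraries in the formula's direction for 13 of the 14 lower and 6 of the 6 higher genes in its single high-dose library, and Angelica for 2 and 0. SAMD11 was at 31.00 CPM under Paeonia and 74.9 under Angelica, beside 34.9 and 36.2 under Samul-tang. ID3 was at 71.5 CPM under Paeonia and 210.2 under Angelica, and ID1 at 141 and 316. Paeonia thus read lower than both Samul-tang libraries for these genes and Angelica higher. ALDH1A3 was at 1198 CPM under Paeonia and 760.4 under Angelica, and NPTX1 at 20.9 and 3.61. Both Paeonia and Angelica lie in set 4, and with 1 library each there is no replicate check. Among all genes tested, it was not counted how often such a library lies beyond the 6 component libraries. The counts of lower and higher genes therefore stand without a background.

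Calls were also compared in 4 settings: all libraries, without Samul-tang replicate 1, without replicate 2, and with an offset for GC content. In all 4, 98 of the 964 high-dose calls were made in the same direction, 40 higher and 58 lower. Of these, 56 were also called at the low dose in the same direction, 1 in the other, and 41 were not called there, 14 higher and 27 lower. Of the 41, 16 were also called in the difference of dose effects, so the set is not separate from the 20 genes above. The 1 called in the other direction is LIMCH1, also of the 20. The set of 98 was formed after its values were seen. Among the 27 lower genes were the homeobox transcription factors DLX1, DLX2 and DLX3, known from forebrain, craniofacial and skin development, and GATA2, a zinc finger transcription factor of blood and endothelium. DLX2 was at 13.2 and 15.2 CPM under Samul-tang, 20.5, 20.3 and 21.9 under Rehmannia, 20.2, 19.9 and 22.6 under Cnidium and 23.4, 21.7 and 20.4 under vehicle, so that Samul-tang lay below every library of these groups. Its difference was -0.56 ± 0.08 (adjusted p = 4.87e-05) at the high and -0.20 (adjusted p = 0.0968) at the low dose. GATA2 was at 6.44 and 6.77 CPM under Samul-tang, 9.29, 9.05 and 9.15 under Rehmannia, 10.8, 9.12 and 12.1 under Cnidium and 10.1, 9.74 and 11.1 under vehicle, a difference of -0.58 ± 0.10 (adjusted p = 0.000153). DLX3 differed by -0.86 ± 0.18 (adjusted p = 0.00226) at 1.44 and 1.24 CPM and DLX1 by -0.41 ± 0.07 (adjusted p = 0.000164). Against Rehmannia alone DLX3 did not pass the test (-0.58, adjusted p = 0.121). None of these 4 passed the difference of dose effects (adjusted p = 0.454 for DLX2 and 0.548 for GATA2).

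Other genes of the same set of 41 have known roles in signalling and in the cytoskeleton. FAM83G, a scaffold of casein kinase 1, was at 33.3 and 37.6 CPM under Samul-tang, 47.5, 50.05 and 48.7 under Rehmannia, 52.7, 54.9 and 57.3 under Cnidium and 66.6, 69.5 and 72.7 under vehicle. All extracts lay below vehicle and the formula lowest (-0.55 ± 0.08 from the component mean, adjusted p = 0.000109). RASL11A, a small Ras-like GTPase, differed by -0.49 ± 0.10 (adjusted p = 0.00156), and ADRA2C, an alpha-2 adrenergic receptor expressed at 0.772 and 0.673 CPM under Samul-tang, by -1.25 ± 0.23 (adjusted p = 0.000823). RASL11A did not pass the test against Rehmannia alone (-0.25, adjusted p = 0.2385). On the higher side, VIPR1, a receptor for vasoactive intestinal peptide, was at 10.3 and 8.47 CPM under Samul-tang, 8.51, 8.02 and 8.69 under Rehmannia, 3.99, 4.27 and 4.85 under Cnidium and 3.42, 2.90 and 2.93 under vehicle. It overlapped Rehmannia and exceeded Cnidium (1.10, adjusted p = 1.14e-08). TXNIP, an arrestin-like protein that binds thioredoxin and lowers glucose uptake, was at 22.9 and 21.4 CPM under Samul-tang, 15.8, 19.4 and 19.2 under Rehmannia, 10.2, 12.4 and 14.1 under Cnidium and 9.88, 10.2 and 8.71 under vehicle. The formula lay above all 6 component libraries (0.56 ± 0.08, adjusted p = 6.35e-05). Against Rehmannia alone TXNIP did not pass the test (0.28, adjusted p = 0.111). Its low-dose difference from the component mean was -0.07, and the difference of dose effects did not pass the test (0.63, adjusted p = 0.0532). MYZAP, a junction protein of heart muscle, was at 13.7 and 12.9 CPM against 11.6, 11.9 and 10.5 under Rehmannia and 7.65, 7.42 and 7.46 under Cnidium (0.52 ± 0.09, adjusted p = 0.000359). It did not pass the test against Rehmannia alone (0.22, adjusted p = 0.266).

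Several of the largest differences were as large at the low dose and were shared by the other formula of set 7. MARK2, a microtubule affinity-regulating kinase, was at 36.5 and 38.9 CPM under Samul-tang, 20.99, 16.4 and 17.1 under Rehmannia, 15.4, 17.00 and 16.4 under Cnidium and 17.8, 14.6 and 16.3 under vehicle, the largest increase among named genes (1.14 ± 0.20, adjusted p = 0.00267). At the low dose Samul-tang stood at 36.9 and 25.3 CPM (difference 0.91, adjusted p = 0.00744), and the set 7 formula Sagunja-tang at its high dose at 37.8, 40.8 and 33.8 CPM. EIF2B5, the catalytic subunit of the eIF2B exchange factor, differed by 0.41 at the high and 0.43 at the low dose, with Samul-tang at 67.8 and 63.8 CPM and Sagunja-tang at 66.1, 74.7 and 71.4. SEC61G, a subunit of the ER translocon, differed by 0.50 and 0.50, with 152 and 117 CPM under Samul-tang and 147, 204 and 165 under Sagunja-tang. On the lower side the pseudogene MORF4L1P1 differed by -0.61 and -0.55 (19.5 and 16.9 CPM, Sagunja-tang 16.3, 16.3 and 17.1). In these genes both formulas of set 7 lay on the same side of the components, and formula and set cannot be told apart. For SAMD11, Sagunja-tang was at 41.7, 42.4 and 42.1 CPM, also below all component libraries at the high dose (54.4 to 79.2 CPM) and below vehicle (77.6 to 82.3 CPM). For ID3 it was at 156, 178 and 162 CPM, within the range of those component libraries (129 to 204 CPM).

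The remaining named genes included inflammatory and early response genes. SERPINB3, a serine protease inhibitor with a near-identical neighbour (SERPINB4) that makes its count uncertain, was at 6.73 and 5.95 CPM under Samul-tang, 3.46, 3.26 and 4.37 under Rehmannia, 4.24, 3.65 and 3.66 under Cnidium and 2.23, 3.18 and 2.73 under vehicle (0.76 ± 0.12, adjusted p = 6.35e-05). EGR1, an immediate early zinc finger factor, was at 38.3 and 48.7 CPM under Samul-tang, 29.8, 29.4 and 33.2 under Rehmannia, 24.2, 29.3 and 30.8 under Cnidium and 19.7, 20.5 and 16.9 under vehicle; the difference of 0.57 ± 0.11 (adjusted p = 0.00503) was lost without Samul-tang replicate 2. IL1B (7.80 and 9.07 CPM under Samul-tang, 0.48, adjusted p = 0.00243) was lost without replicate 2 and IL6 (7.91 and 6.56 CPM, 0.42, adjusted p = 0.0115) without replicate 1. FGG, the fibrinogen gamma chain (0.64, adjusted p = 0.00022), SNRPE, a spliceosome core protein (0.54, adjusted p = 0.00687), and the potassium channel KCNA7 (-0.70, adjusted p = 0.00278) were also lost without replicate 1. DOK7, an activator of the muscle kinase MuSK, was lower at both doses (-0.50 and -0.47). The pseudogene FKBP9P1 (-0.99) shares sequence with its parent gene and is uncertain.

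Of 9 known AHR targets tested, 4 were higher under Samul-tang than the component mean and none lower at the high dose, with a median of 0.275 against 0.002 for all genes. At the low dose 1 was higher and 1 lower, with a median of -0.139. Over all genes tested, 2.43% were higher at the high dose and 7.36% at the low dose. Against Rehmannia none was higher and 1, the amino acid transporter SLC7A5, lower (median -0.009), and against Cnidium 7 were higher (median 0.504). CYP1B1, a cytochrome P450 that oxidises polycyclic aromatics and estrogens, was at 185 and 171 CPM under Samul-tang, 166, 176 and 174 under Rehmannia, 129.7, 129 and 118 under Cnidium and 118, 113 and 113 under vehicle. It overlapped Rehmannia and lay above Cnidium and vehicle. Its difference from the component mean was 0.28 ± 0.04 (adjusted p = 1.57e-05), and from Cnidium 0.50 (adjusted p = 1.395e-10). TIPARP, a mono-ADP-ribosyltransferase that feeds back on AHR, was at 76.8 and 75.8, 71.05, 77.1 and 82.04 and 47.05, 51.9 and 54.7 CPM in the same order (0.28 ± 0.07, adjusted p = 0.0245). NQO1, shared with the NRF2 list, was at 219 and 213 CPM under Samul-tang, 190.3, 207 and 190.3 under Rehmannia and 172, 171 and 173 under Cnidium, and differed as much at the low dose (0.23) as at the high (0.23). Without Samul-tang replicate 1 the list had 2 higher and none lower, and without replicate 2 it had 4 and 1.

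Of 20 hypoxia targets 5 were lower and none higher under Samul-tang than the component mean (median -0.114), where 3.2% of all genes were lower. Against Rehmannia 1 was higher and 2 lower (median 0.016), and against Cnidium none was higher and 8 lower (median -0.163). At the low dose 1 was higher and 5 lower (median -0.03), where 7.36% of all genes were higher and 8.31% lower. At the high dose the count of lower genes was 3 without Samul-tang replicate 1 and 7 without replicate 2. CA9, a membrane carbonic anhydrase, was at 22.6 and 23.9 CPM under Samul-tang, 23.1, 22.2 and 24.2 under Rehmannia, 37.3, 34.4 and 35.7 under Cnidium and 37.1, 33.02 and 35.2 under vehicle (-0.31 ± 0.05, adjusted p = 0.000338; low dose -0.17, adjusted p = 0.0203). BNIP3, a mitophagy receptor, was at 81.5 and 76.2, 74.8, 78.7 and 73.3 and 114, 115 and 111 CPM under the same extracts (-0.23 ± 0.04, adjusted p = 0.00014). For both, Samul-tang overlapped Rehmannia and Cnidium did not pass the test against vehicle (0.04, adjusted p = 0.708 and -0.07, adjusted p = 0.277). Of 20 glycolysis enzymes 6 were lower and 2 higher (median -0.092), with none lower and 1 higher against Rehmannia and 13 lower and 1 higher against Cnidium, and 5 were lower and 2 higher at the low dose (median -0.063). None of them was called without Samul-tang replicate 1, where all genes together had 190 calls. GAPDH, ALDOA and GPI, lower by -0.20, -0.17 and -0.17 at the high dose, were lower by -0.22, -0.19 and -0.20 at the low dose.

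Of 11 actin and contraction genes 6 were lower under Samul-tang than the component mean and none higher (median -0.133), and 5 were lower at the low dose (median -0.199). Over all genes tested, 3.2% were lower at the high dose and 8.31% at the low dose. MYL9, a myosin regulatory light chain, was at 210.1 and 245 CPM under Samul-tang, 272, 259.6 and 268 under Rehmannia, 249, 264 and 263 under Cnidium and 310.3, 295 and 302 under vehicle (-0.21 ± 0.04, adjusted p = 0.00322; low dose -0.30). TAGLN, the smooth muscle protein transgelin, differed by -0.18 and at the low dose by -0.24. Without Samul-tang replicate 1 the count was 2 lower, and without replicate 2 it was 9. In the list of TGF-beta and YAP targets 5 of 20 were lower and 1 higher (median -0.09), with 1 lower without replicate 1. Secreted regulators of insulin-like growth factors were split, 2 higher and 2 lower of 11 with stanniocalcins. IGFBP3, the main carrier of these factors, was at 443 and 448 CPM under Samul-tang, 503, 512 and 514 under Rehmannia, 513, 501 and 497 under Cnidium and 625, 631 and 602 under vehicle (-0.19 ± 0.03, adjusted p = 0.000273).

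**Figure D5:**
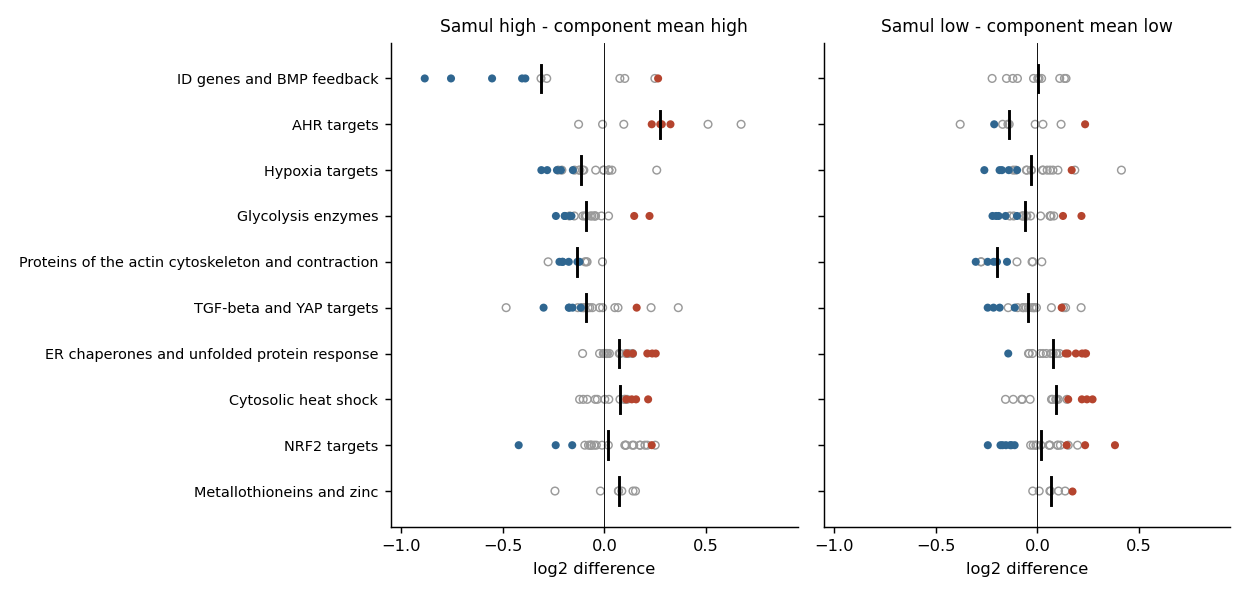
Log2 difference of Samul-tang minus component mean for each tested member (circles) of 10 gene lists (y axis) at the high dose (left) and the low dose (right); filled red and blue circles passed the test, open circles did not, and the black bar is the list's median. The ID and BMP list has a median of -0.312 at the high and 0.002 at the low dose, while the actin list is at -0.133 and -0.199.

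NRF2 targets differed from vehicle under both formula and components. Of 23, 14 were higher and 1 lower than vehicle under Samul-tang (median 0.33). Under the component mean 15 were higher (median 0.21), and 11 met the definition of like. Over all 17103 genes tested, 1804 were higher and 1883 lower than vehicle under Samul-tang. Under the component mean 1196 were higher and 1244 lower, and 8.07% of all genes were like. AKR1B10, an aldo-keto reductase, was at 5.33 and 6.84 CPM under Samul-tang, 4.49, 4.83 and 4.42 under Rehmannia, 6.25, 5.97 and 5.86 under Cnidium and 3.38, 3.42 and 3.50 under vehicle. It overlapped both components and lay above vehicle by 0.84 (adjusted p = 8.65e-06). AKR1C3, of the same enzyme family and with near-identical relatives, was 0.85 above vehicle and 0.11 from the component mean. HMOX1, heme oxygenase 1, went the other way: it was at 64.3 and 66.95 CPM under Samul-tang, 83.3, 76.7 and 73.8 under Rehmannia, 101, 97.8 and 98.6 under Cnidium and 77.3, 79.7 and 81.7 under vehicle. The formula lay below both components and below vehicle, and Cnidium above vehicle (-0.42 ± 0.05 from the mean, adjusted p = 1.32e-07; low dose -0.17, adjusted p = 0.0113).

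Metallothioneins bind zinc and copper. Of 7 genes tested in the metallothionein and zinc list 3 were lower than vehicle under Samul-tang and 3 under the component mean. Among all 17103 genes tested, 1883 and 1244 were lower in the same order. None of the 7 differed between formula and component mean, while 2 were higher under Samul-tang than under Cnidium. MT1E was at 12.8 and 14.96 CPM under Samul-tang, 13.7, 13.3 and 14.8 under Rehmannia, 11.8, 10.9 and 11.01 under Cnidium and 25.8, 25.05 and 21.7 under vehicle. MT1X was at 12.6 and 11.7, 13.6, 11.7 and 11.8, 10.5, 10.7 and 11.2 and 20.9, 19.8 and 19.4 CPM in the same order. Differences from the component mean were 0.15 (95% interval -0.01 to 0.31) and 0.07 (-0.08 to 0.22). Genes outside this list that met the definition of like, with large changes from vehicle, were TNFRSF25, a death domain receptor (1.03), THBD, the endothelial anticoagulant thrombomodulin (0.82), DSP, the desmosomal protein desmoplakin (-0.75), and CCN2, a matricellular YAP target (-0.69). Collagens and matrix genes had 12 of 22 in the class like and mitosis genes 9 of 26, beside 8.07% of all genes tested.

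Chaperones of the endoplasmic reticulum (ER) held 5 genes that the formula moved less than the components did. Of 19 genes, 15 were lower than vehicle under the component mean (median -0.213) and 11 under Samul-tang (median -0.164), with none higher. All genes together had 1244 and 1883 lower of 17103 in the same order. Samul-tang lay above the component mean for 5 and below for none, and these 5 were of the class moved less while 7 were like. Of all genes tested, 0.304% were moved less and 8.07% were like. HSPA5 (BiP), the main chaperone of the ER, was at 3032 and 2929 CPM under Samul-tang, 2681, 2623 and 2606 under Rehmannia, 2444, 2342 and 2324 under Cnidium and 3413, 3496 and 3619 under vehicle. Its 3 steps did not overlap: vehicle highest, then Samul-tang, then both components (0.25 ± 0.04 from the component mean, adjusted p = 9.37e-05). DNAJB9, a BiP cochaperone, was at 37.97 and 32.8, 29.5, 27.7 and 32.2, 31.5, 29.3 and 30.1 and 40.2, 43.3 and 43.2 CPM in the order Samul-tang, Rehmannia, Cnidium and vehicle. HSP90B1 (0.14), PDIA3 (0.11) and HERPUD1 (0.21) were the other 3. At the low dose 6 of the list were higher and 1 lower (median 0.078, against 0.073 at the high dose), with HSPA5 at 0.23. Over all genes tested, 7.36% were higher at the low dose and 2.43% at the high dose. Of the 5 calls 1, HSPA5, was made without Samul-tang replicate 1, and the cytosolic heat shock list went from 4 higher of 15 to none.

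Other lists had 0 to 3 calls in a direction, where 2.43% of all genes were higher and 3.2% lower. Cholesterol synthesis had 3 higher and none lower of 24, interferon response 3 and 0 of 26, DNA replication 3 and 0 of 25, mitosis 0 and 2 of 26, ribosomal proteins 0 and 1 of 20, and integrins 1 and 1 of 15. Without Samul-tang replicate 1, cholesterol synthesis, DNA replication, mitosis, ribosomal proteins and integrins had 0 calls and interferon response 1, and without replicate 2 cholesterol synthesis had 6 higher and 1 lower, DNA replication 5 and 2 and mitosis 3 and 6. Neutrophil and monocyte chemokines had no call of 9. Among cytokines of the IL6, IL1 and CSF families 2 of 10 were higher and 1 lower. Glucose-sensing arrestins had 2 higher of 6 (TXNIP and ARRDC4), and iron and heme genes 3 higher of 14, among them BLVRA, biliverdin reductase A, at 45.2 and 46.7 CPM under Samul-tang, 37.1, 39.6 and 37.5 under Rehmannia, 35.99, 37.1 and 34.9 under Cnidium and 35.3, 39.3 and 35.3 under vehicle (0.31 ± 0.05, adjusted p = 0.000216). Of the marker lists for other cell types, endothelium had 1 call (KDR, 0.25, adjusted p = 0.00151) with a summed level over 6 markers of 38.5 to 39.9 CPM under Samul-tang, 32.4 to 35.9 under Rehmannia and 29.3 to 30.7 under Cnidium. KDR made up most of that sum, and VWF, CDH5 and CLDN5 were each below 1 CPM.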

How the data were processed

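The deposited values for SW1783 cells were expected counts, estimated by the authors with RSEM 1.3.3 from reads trimmed with Trim Galore 0.6.5 and aligned with STAR 2.7.3a to hg38 (GRCh38), per the submitters' processing notes; read quality had been checked with FastQC 0.11.9. Per the labels' protocols, directional mRNA libraries had been sequenced as paired-end reads on an MGI instrument. Neither annotation release nor strand setting of the counting is given in the sources used here. The sample labels and the series text state different vehicle concentrations, and the former is used. Of 279 columns of 60675 genes, 219 were not used here. Expected counts were rounded to whole numbers (90.67% already were), and 56558 genes took a symbol from an Ensembl name table.

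The 27 libraries were fitted together with edgeR 4.0.16 (R 4.3.3; TMM factors 0.972 to 1.028, filterByExpr, glmQLFit with its robust option, glmQLFTest; 10 groups, 17 residual degrees of freedom, biological coefficient of variation 0.04), with Benjamini-Hochberg adjustment over all 17103 genes tested in each comparison and a threshold of 0.05. The fit was limited to the preparations compared and the vehicle, because 1 other library, Sagunja-tang low replicate 1, stood apart in an earlier account. That library alone does not account for the effect of this choice. With only it left out (53 libraries), 111 genes were called against the component mean at the high dose, where the 27 libraries gave 964. Standard errors were derived from the F statistic. The component mean is the average of both groups on the log scale. CPM are scaled with the TMM factors. No pair of high-dose libraries of a group agreed within sampling noise.

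Members and the 46 gene lists were chosen with earlier results of these data known. Genes were named by a rule: adjusted p under 0.05, at least 5 CPM on the higher side, both Samul-tang libraries beyond all 6 component libraries and a gene symbol; of these the 15 largest differences in each direction, those called in the difference of dose effects (up to 5 in each direction by rule, the others because all 20 are given), the 5 largest in each direction among genes alike in both, and up to 4 called members per list at 1 CPM or more. Other genes named (SMAD6, SMAD7, GREM1, LDHA, STC2, SLC7A5, DLX1, DLX3, ADRA2C, VIPR1) were chosen after their values were seen.

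Alternatives were all 54 or 53 libraries, the 8 high-dose libraries alone, library size alone, DESeq2 size factors, DESeq2 1.42.0, no filter, a replicate block, each library left out, the low dose as reference and an interval of 0.3; the GC content offset, the single components as references of the dose effects and the list counts under each setting were added after seeing the data. The scripts were tested on simulated data. Python 3.11.15 with pandas 2.3.3 made the tables, and matplotlib 3.10.9 the figures.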

Additional observations from a re-analysis of the deposited data

Results flagged for a closer look

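The 20 genes below responded to the step from low to high dose differently under Samul-tang than under its components, by the test of that difference itself in edgeR (adjusted p under 0.05). Values are the log2 dose effect of Samul-tang minus the mean log2 dose effect of Rehmannia and Cnidium. The lower genes stood at -2.67 for ZSWIM8-AS1, -1.36 for UCA1, -0.81 for SAMD11, -0.76 for ID2, -0.73 for ID3, -0.68 for ATOH8 and -0.52 for ID1, and further at -0.45 for RHOBTB3, -0.42 for SYTL5, -0.34 for FAM13B, -0.34 for PODXL, -0.33 for LIMCH1, -0.27 for LMO7 and -0.22 for GOLIM4. The higher genes stood at 0.30 for ALDH1A3, 0.38 for LRIG1, 0.47 for CEMIP, 0.50 for SERPINB2, 0.66 for IGFBP1 and 0.68 for NPTX1.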

How the results depend on the processing

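None of the 46 genes followed against the component mean (17 alternatives) changed direction. Nor did any of the 20 in the difference of dose effects (24 alternatives). All of these genes had been selected as called in the main fit, which favours an unchanged direction. Those chosen by the naming rule also had both Samul-tang libraries beyond every component library at the high dose. Leaving out a library could hardly reverse their difference from the component mean. The unchanged direction is therefore not a separate check of these genes. Other genes named in the text were not followed there. The number of calls depended on which libraries shared the estimate of the spread. With all 54 libraries 29 genes differed from the component mean at the high dose, 4 from Rehmannia, 81 from Cnidium, 0 at the medium and 0 at the low dose (1671 and 1703 at an unadjusted p under 0.05 in edgeR; DESeq2 on the 27 libraries called 2126 and 2536), 5 in the difference of dose effects, 724 between Samul-tang and vehicle and 490 between component mean and vehicle; 26 were beyond, 266 like, 1 less and 4 outside both components. Without Sagunja-tang low replicate 1 (53 libraries) the counts were 111, 13, 287, 179 and 786 for the first 5 comparisons, 2336 and 1599 against vehicle, 100 beyond, 4 less and 12 outside both. With the 8 high-dose libraries alone 295, 65 and 464 genes differed from the component mean, Rehmannia and Cnidium.

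The difference of dose effects gave 33 calls with DESeq2 (17 shared with the 20), 50 without a filter on low counts (19 shared), 40 with the replicate block (20 shared) and 37 with the GC offset (20 shared), 3 with Rehmannia alone and 71 with Cnidium alone. The GC offset gave 430 calls at the medium and 813 at the low dose. With the low dose in place of vehicle as reference 20 genes were beyond, 347 like and 0 less. Of the 347, 148 were also like with vehicle as the reference.

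With each library left out in turn there were 190 to 2691 calls against the component mean, 29 to 2146 against Rehmannia, 436 to 2459 against Cnidium, 321 to 2269 at the medium and 740 to 2860 at the low dose, 17 to 331 in the difference of dose effects, 2018 to 4088 for Samul-tang and 1377 to 2229 for the component mean against vehicle, and 171 to 2145 genes beyond, 816 to 1329 like, 9 to 165 less and 23 to 1530 outside both. Both ends came from the Samul-tang libraries in the high-dose comparisons of the formula. Other single libraries moved a count by over 1.5 times: without Rehmannia high replicate 1 or 3, 90 and 174 genes differed from Rehmannia and 74 and 128 lay outside both; without Cnidium high replicate 2 or 3, 671 and 568 differed from Cnidium, and without replicate 3 141 lay outside both; without vehicle replicate 1, 1377 differed between component mean and vehicle, 816 were like and 28 less; without vehicle replicate 2, 29 were less, and without Rehmannia high replicate 1, 32; without Samul-tang medium replicate 1 or 2, 321 and 563 were called at the medium dose, and without low replicate 1 or 2, 803 and 740 at the low dose. Where a lone Samul-tang library was left it was assumed to vary like the other groups. The causes were not tested.

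Whether replicate numbers pair the libraries was not settled by their correlations. Deviations of same-numbered libraries correlated between -0.139 and 0.24 over 21 pairs, and between -0.139 and 0.102 over the 12 pairs with Samul-tang. With 3 candidates for each, 11 of 21 libraries correlated best with their own number. The replicate block gave 1169 calls against the component mean, where the main fit gave 964, and 509 against Rehmannia, where the main fit gave 349. Calls of differences near 0.2 on the log2 scale rest on 2 Samul-tang libraries.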

Other observations

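Among lists not described above, nuclear genes of oxidative phosphorylation had 2 higher and 1 lower of 26 under Samul-tang than the component mean (median 0.042), the 13 mitochondrial ones none (median -0.1), and genes of retinoid metabolism 1 higher (ALDH1A3) and 2 lower of 8. Genes of hyaluronan synthesis and breakdown had 2 higher of 8, CEMIP and HAS3, and FOXO targets 2 higher of 14, TXNIP and the ubiquitin ligase FBXO32. Mitochondrial transcripts made up 6.61 to 6.85% of counts under Samul-tang, 6.19 to 7.2% under Rehmannia and 7.01 to 7.6% under Cnidium at the high dose.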
